A study of Mus musculus with 6 samples.

Results

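The 5 circular RNAs of the genes March6, Trim37 and Ltn1, which encode ubiquitin ligases, were followed in neutrophils of diabetic and non-diabetic mice. The genes gave 1, 2 and 2 circular RNAs. They are all the entries of these 3 host genes among the 453 circular RNAs that the study listed for a difference of more than 1.5-fold between its groups, out of 14236 circular RNA probes on the array. They were thus selected on the difference between the db and non-db means of these same arrays. Their group differences are given as a description, and no test was run on them. None of the 5 was among the circles whose change the study called significant.

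The study asked which circular RNAs differ between neutrophils of type 2 diabetic mice and those of their controls. All mice were male BKS.Cg-Dock7m +/+ Leprdb/J animals aged 8 weeks. The db group was Lepr db/db, which lacks a working leptin receptor and becomes obese and diabetic, and the non-db group was Lepr db/+, so the controls carry the mutant allele too. Each group had 3 samples, and each sample was neutrophils taken from the pooled bone marrow of 3 mice with beads against Ly-6G, a neutrophil surface protein. The non-db samples are called pools 1, 2 and 3 here, and the db samples pools 4, 5 and 6. Linear RNA was digested with RNase R, and each pool was read on 1 Cy3-labelled Arraystar mouse circular RNA array, so that the number of arrays limits the precision. All values are the deposited log2 signals unless another scale is named, and an error is the SD over 3 pools.

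Ubiquitin ligases attach the small protein ubiquitin to chosen proteins, most often to mark them for the proteasome. The protein of March6 sits in the membrane of the endoplasmic reticulum, where it marks faulty membrane proteins and an enzyme of cholesterol synthesis. Trim37 encodes a ligase of the TRIM family known for its role at centrosomes and for modifying a histone. Ltn1 encodes listerin, which marks unfinished protein chains on stalled ribosomes. A circular RNA arises when a splice site joins backwards to an earlier one in the same transcript. It has no free ends, so it outlasts linear RNA under RNase R, and its level need not follow that of the messenger RNA or protein of its host gene. Neither was read here: 0 of the 3 host genes were among the 44 linear probes that could be given a symbol.

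All 5 probes passed the filter on dim probes, and each was well above background on all 5 arrays with a complete scanner file. The arrays held 12722 probes that passed it. The filter asked for 3 of these arrays, so a probe bright in the 3 db pools alone could pass. Of 25 marker genes of neutrophils and other bone marrow cells, 0 were among the named linear probes and 1, Itgam, was a host in the study's lists. The purity of the neutrophils could thus not be checked from these arrays. The circular RNA of Itgam, the gene of a surface integrin of myeloid cells, read 9.20, 9.60 and 10.15 in pools 1 to 3 and 8.06, 9.63 and 9.30 in pools 4 to 6. Its part in the values below was not tested. In such bulk samples, fewer cells of a type and less RNA per cell cannot be told apart.

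The circular RNA of March6 gave the largest values of the 5 in their distance from the controls. It is mmu_circRNA_28348, an exonic circle from chromosome 15, listed as higher in db neutrophils. The paper gives PCR primers for it, but reports that of the circles tried by quantitative PCR only a different one was detected. The values here are thus array signals alone. The non-db pools 1, 2 and 3 read 6.79, 7.02 and 6.76, and the db pools 4, 5 and 6 read 11.72, 9.36 and 6.18. Pool 4 was far above every other pool, pool 5 was also above all controls, and pool 6 was below all of them, so the groups overlapped. The means were 9.09 ± 2.78 in db and 6.86 ± 0.14 in non-db, a log2 difference of 2.23, or 4.70-fold. Pool 4 stood 29.2-fold and pool 5 stood 5.66-fold above the non-db mean, whereas pool 6 differed from it by -0.67 on the log2 scale. Among all probes that passed the filter, 6 had a larger rise of pool 4 over the non-db mean. Without pool 4 the log2 difference was 0.91, and without pool 6 it was 3.68. The size of the mean difference thus turned on which of these pools was counted.

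Trim37 had 1 circle with the tightest controls of the 5 and 1 with the widest. The first, mmu_circRNA_24012, is exonic, comes from chromosome 11 and was listed as higher. It read 7.56, 7.53 and 7.49 in the non-db pools, and 11.15, 9.61 and 7.63 in db pools 4, 5 and 6. All db pools lay above all non-db pools, but pool 6 only just did, at 0.10 over the non-db mean. The means were 9.46 ± 1.77 and 7.53 ± 0.04, a log2 difference of 1.94, or 3.83-fold. Pool 4 was 12.3-fold and pool 5 was 4.24-fold above the controls. Without pool 4 the log2 difference was 1.09, and without pool 6 it was 2.85. The order of the db pools was the one seen for March6, with pool 4 first, pool 5 next and pool 6 last.

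The other circle of Trim37, mmu_circRNA_004724, is exonic too and was listed as lower. It read 5.26, 5.10 and 6.39 in non-db pools 1, 2 and 3, and 4.79, 5.01 and 5.01 in db pools 4, 5 and 6. The db pools lay close together, below every control, and pool 3 stood well above the other controls. The means were 4.94 ± 0.13 in db and 5.58 ± 0.70 in non-db, a log2 difference of -0.65. This was the only one of the 5 whose non-db SD was above its db SD. Without pool 3 the log2 difference was -0.24 and the groups still did not overlap, with 5.01 the highest db value and 5.10 the lowest non-db value. The circles of Trim37 thus differed in which pools stood out: db pools 4 and 5 for the first, non-db pool 3 for the second.

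Ltn1 also had entries in both directions. The higher one, mmu_circRNA_29986, is an exonic circle from chromosome 16. It read 7.70, 8.06 and 7.72 in the non-db pools and 9.26, 8.26 and 7.93 in db pools 4, 5 and 6. Pool 4 was again the highest of all, pool 5 was next, and pool 6 fell below the control of pool 2, so the groups overlapped. The means were 8.48 ± 0.69 and 7.83 ± 0.20, a log2 difference of 0.66, or 1.58-fold. Pool 4 alone was 2.70-fold above the non-db mean, and without it the log2 difference was 0.27.

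The lower entry of Ltn1, mmu_circRNA_29984, read 10.78, 11.86 and 10.68 in non-db pools 1, 2 and 3, and 9.09, 10.34 and 11.47 in db pools 4, 5 and 6. Pools 4 and 5 lay below all controls, with pool 4 the lowest of the 6, but pool 6 lay above pools 1 and 3. The means were 10.30 ± 1.19 in db and 11.11 ± 0.65 in non-db, a log2 difference of -0.81. Pools 4 and 5 stood at -2.01 and -0.77 from the non-db mean, and pool 6 at 0.36. The value rested on several pools. It was -0.20 without pool 4, -0.43 without pool 2 and -1.39 without pool 6.

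**Figure D1:**
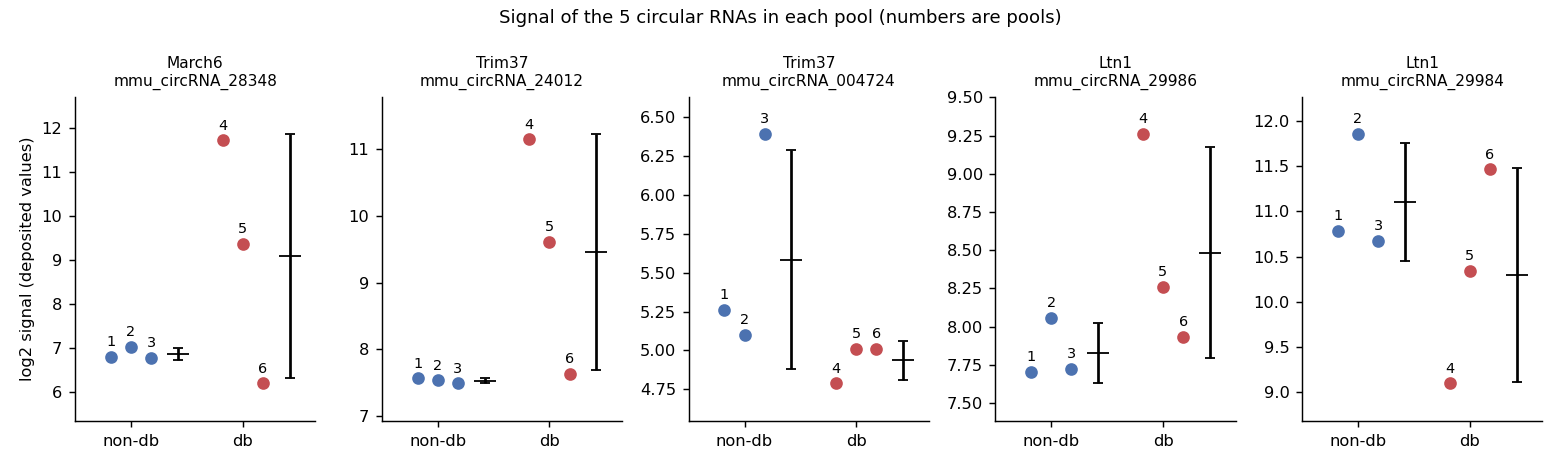
The log2 signal (vertical axes, each with its own range) of the 5 circular RNAs in the 3 non-db pools (blue, numbers 1 to 3) and the 3 db pools (red, numbers 4 to 6), with the mean and SD of each group as black bars. For the 3 circles listed as higher, pool 4 is the highest and pool 6 sits near or below the controls, and for mmu_circRNA_004724 non-db pool 3 at 6.39 sets the wide error.

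Set side by side, the 5 circles shared the db pool that stood farthest from the controls. It was pool 4 in 5 of 5, upwards for the 3 listed as higher and downwards for the 2 listed as lower. The db pools were also the more spread group in 4 of 5, while over all probes that passed the filter the db SD was above the non-db SD in 48.6%. In 2 of the 5, both from Trim37, the db and non-db pools did not overlap, 1 higher and 1 lower. Over all 12722 probes, the db pools were all above the non-db pools in 3.96% and all below them in 2.68%. The choice of the 5 used this contrast, so nothing is read from their count.

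**Figure D2:**
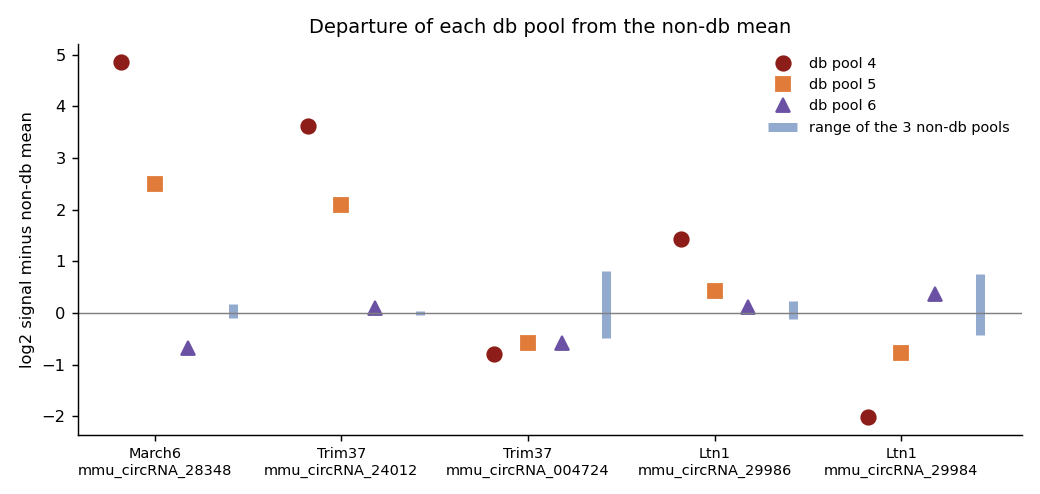
The log2 signal of each db pool minus the mean of the non-db pools (vertical axis) for the 5 circular RNAs, with pool 4 as circles, pool 5 as squares, pool 6 as triangles, and the range of the 3 non-db pools as a blue bar around 0. Pool 4 reaches 4.87 for March6, 3.62 for the first circle of Trim37 and -2.01 for the lower circle of Ltn1, whereas pool 6 stays between -0.67 and 0.36.

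Across all probes, limma found 0% past an adjusted p of 0.05 (0 of 12722 probes, smallest adjusted p = 0.951), with 205 at an unadjusted p under 0.05. The unpaired t-test, one of those named in the paper's methods, gave 274 on the same values at an unadjusted p under 0.05. After Benjamini-Hochberg adjustment it gave 0. With 3 pools against 3, an exact two-sided permutation test cannot go below 0.1. Leaving out db pool 6, the one that sat nearest the controls for March6 and for both Ltn1 circles and the higher Trim37 circle, brought 2 probes past the adjusted threshold in limma, and neither was one of the 5.

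The arrays were scanned in 2 sessions, pools 1 and 4 in the first and pools 2, 3, 5 and 6 in the second. The first session held 1 pool of each group, and it held pool 4. For March6 the log2 difference, db minus non-db, was 4.94 in the first session and 0.88 in the second. For Trim37 it was 3.59 and 1.11 for the higher circle, and -0.47 and -0.74 for the lower one. For Ltn1 it was 1.56 and 0.21 for the higher circle, and -1.69 and -0.37 for the lower one. All 5 kept their sign in both sessions, and 4 of the 5 had the larger difference in the session of pool 4. The members were chosen on the mean over both sessions, so nothing is read from these counts. With 1 pool a group in that session, what is particular to pool 4 and what the session did to db pools cannot be told apart.

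The scanner signals, before any scaling between arrays, also had pool 4 as the highest or lowest pool of the circles given here. The processed signal is an intensity that the scanner software corrected for background in its own way. For the March6 circle it was 85.8, 84.6 and 83.5 in pools 1, 2 and 3. In pools 4, 5 and 6 it was 2436, 739 and 61.2. The spot was thus bright on the array of pool 4 before any normalization. For the higher circle of Trim37 the signal was 142 and 175 in pools 2 and 3, and 1715, 901 and 202 in pools 4, 5 and 6. For the lower circle of Ltn1 it was 3756 and 1332 in pools 2 and 3, and 486, 1463 and 3081 in pools 4, 5 and 6, so that pool 5 lay above pool 3 on this scale and not below it. The file of pool 1 stopped after 2422 of 15712 spots, and of the 5 probes only that of March6 was in it. None of the 26 spots of these probes was marked as uneven, as an outlier or as saturated, and 3 carried the background flag, those of March6 in pools 2 and 3 and of the lower Trim37 circle in pool 3.

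Spots near those of the members were read for the same pool. Within 3 rows and columns of each member lay 30 to 47 other circular RNA probes, and the median departure of pool 4 among them was between -0.11 and 0.01 on the log2 scale for all 5. The members' own departures ran from -2.01 to 4.87. For March6, the higher Trim37 circle and the lower Ltn1 circle, no neighbour departed as far in the same direction. The highest neighbour of the higher Ltn1 circle lay past its own 1.43, and those of the lower Trim37 circle reached -0.90, past its own -0.80.

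One spot lay in a bright patch of its array. For the lower circle of Trim37, the spot of pool 3 had a local background of 109, where the median over that array was 16 and the same spot on the other arrays had 14 to 18. All 34 spots around it carried the scanner software's background flag, as did 3.54% of the spots of that array. The spot's median signal was 179.5, which leaves 70.5 after subtraction of the background. Its processed signal was 125 in pool 3, against 11.9 in pool 2 and 5.25, 12.8 and 11.7 in pools 4, 5 and 6. In pool 3 the processed signal was thus above the 70.5 left by subtraction of the local background. Among the 30 neighbouring circular RNA probes, pool 3 minus the mean of pools 1 and 2 had a median of 0.31 on the log2 scale, with 20 above 0 and 10 below, and 2 reached the 1.21 of this circle. The part of the background in the value of pool 3 was not tested.

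**Figure D3:**
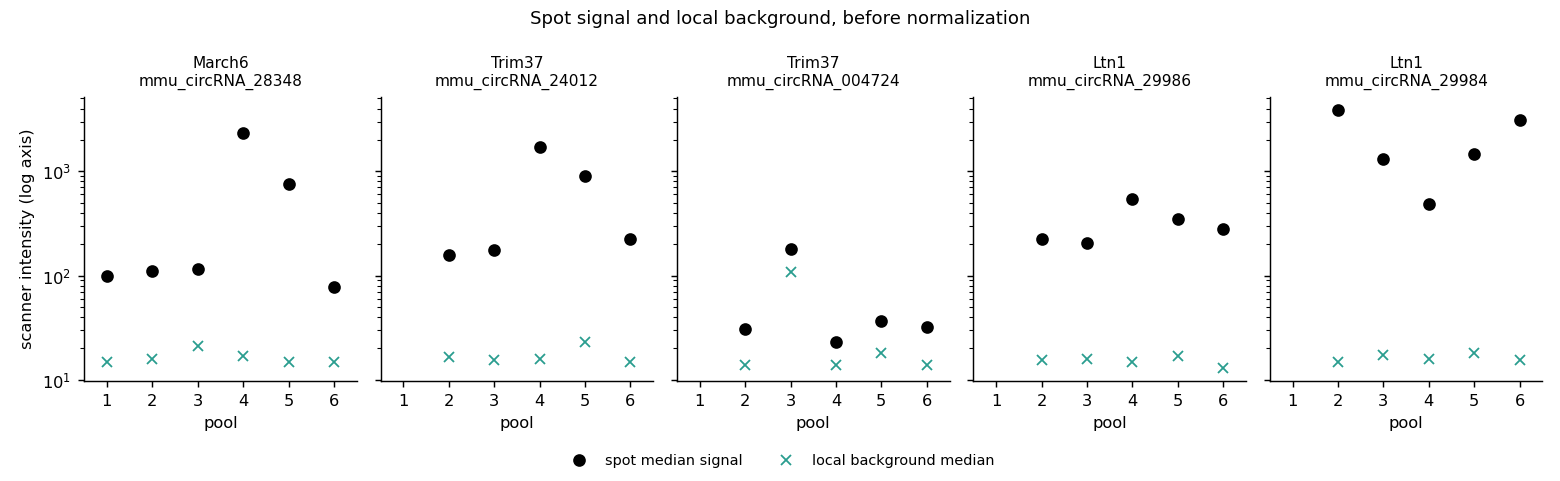
The median signal of each spot (black circles) and the median of its local background (green crosses) in scanner intensity units on a log axis, for the 5 circular RNAs in each pool; the spots of pool 1 were in the scanner file for March6 only. The background stands far above that of the other arrays in 1 place, pool 3 of mmu_circRNA_004724, with 109 under a signal of 179.5, and this circle was near its background on each of the 5 arrays read, with a signal of 23 over 14 in pool 4.

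Both Trim37 and Ltn1 had circles listed in opposite directions, and this set them apart among the listed hosts. In all, 30 host genes had more than 1 listed circular RNA. In 28 of them all entries ran the same way, and in 2, Trim37 and Ltn1, they did not. In these 2 hosts the circles had to lie apart, since they passed the 1.5-fold limit of the lists in opposite directions. The profile of each circle over the 6 pools, centred on its own mean, was compared by the root mean square difference in log2 units. The circles of Trim37 lay 1.74 apart and those of Ltn1 lay 1.33 apart. In the hosts with 1 direction, the farthest pair of circles lay 0.23 apart in the median host and between 0.04 and 1.48 over all. The largest of these was in Gmcl1, whose circles were both higher but differed in size. No such summary was made for pairs of circles from different hosts, of which only those nearest to each member are given below.

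**Figure D4:**
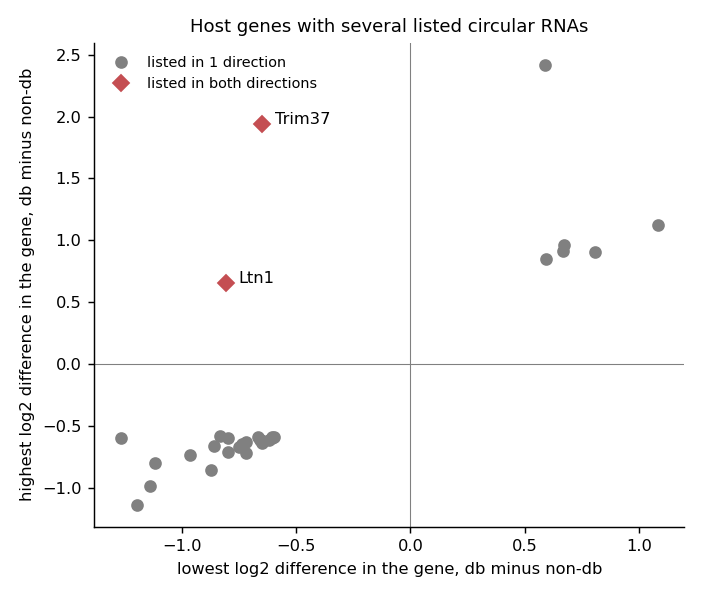
Each point is 1 of the 30 host genes with several listed circular RNAs, placed by the lowest (horizontal axis) and the highest (vertical axis) log2 difference, db minus non-db, among its entries. Trim37 (-0.65 and 1.94) and Ltn1 (-0.81 and 0.66) are the points in the upper left, where the entries have opposite signs.

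The listed circular RNAs with the most similar profile over the 6 pools were named for each member, by the same measure. Nearest to the March6 circle were those of Cacnb2 (mmu_circRNA_33003, 0.18 apart), Gmcl1 (mmu_circRNA_013053, 0.20) and Igsf21 (mmu_circRNA_37852, 0.29). The circle of Cacnb2, a calcium channel subunit, read 7.31, 7.38 and 7.18 in pools 1 to 3 and 11.93, 9.80 and 6.98 in pools 4 to 6. It had the same order of db pools and the same low pool 6, which its choice by profile fixes. Nearest to the higher Trim37 circle were those of Zfp462 (mmu_circRNA_36807, 0.14), Dhx32 (mmu_circRNA_42424, 0.18) and Cfap69 (mmu_circRNA_38070, 0.19). The circle of Dhx32, an RNA helicase family member, read 7.47, 7.68 and 7.28 in pools 1 to 3 and 10.70, 9.49 and 7.35 in pools 4 to 6. Among all probes that passed the filter, none outside the lists was nearer to these circles.

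For the lower Trim37 circle the nearest were those of Dock8 (mmu_circRNA_32343, 0.07), 2310035C23Rik (mmu_circRNA_20622, 0.07) and Gsk3b (mmu_circRNA_29702, 0.10). Dock8, which is needed for the movement of immune cells, gave 9.38, 9.23 and 10.52 in pools 1 to 3 and 8.89, 9.31 and 9.15 in pools 4 to 6. These circles had their highest value in pool 3 too, which their choice by profile fixes. Their spots there had local backgrounds of 17, 14.5 and 15.5.

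Nearest to the higher Ltn1 circle were those of Thoc2 (mmu_circRNA_45424, 0.05), Nsf (mmu_circRNA_24218, 0.07) and Cdc14b (mmu_circRNA_004941, 0.07). The circle of Thoc2, a part of the complex that readies messenger RNA for export, read 5.20, 5.49 and 5.26 in pools 1 to 3 and 6.73, 5.65 and 5.37 in pools 4 to 6. Nearest to the lower Ltn1 circle were those of Cdh2 (mmu_circRNA_31357, 0.14), Cep120 (mmu_circRNA_31750, 0.15) and Angpt1 (mmu_circRNA_28553, 0.15). The circle of Cep120, a centriole protein gene, read 10.32, 11.61 and 10.11 in pools 1 to 3 and 8.73, 9.73 and 10.78 in pools 4 to 6. The nearest profiles of the 2 Ltn1 circles belonged to different genes, with pool 4 high in the first set and low in the second. Their choice by profile fixes this, since the Ltn1 circles themselves had pool 4 at opposite ends.

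The rest of the ubiquitin system was represented among the listed circles by 36 of 30 genes, from 3 lists, of which 13 were listed as higher and 23 as lower. Their median log2 difference was -0.64. Among all 453 listed circles 206 were higher and 247 lower, with a median of -0.60, and over all probes that passed the filter the median was 0.01. The 36 had been listed for their difference, like the members, so that these medians describe the lists.

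Of 18 circles from 14 other ligase genes, 8 were higher and 10 lower. The largest difference upwards was in the antisense circle of Trim21 (mmu_circRNA_19469), a ligase that binds antibodies inside cells. It read 12.07, 10.84 and 10.37 in pools 1 to 3 and 15.06, 13.00 and 9.91 in pools 4 to 6, a log2 difference of 1.56. As for March6, pool 4 was the highest and pool 6 was below every control. The largest difference downwards was in a circle of Xiap (mmu_circRNA_45428), an inhibitor of caspases. It read 6.67, 5.93 and 7.73 against 6.10, 5.39 and 5.47, a log2 difference of -1.12, with pool 3 the highest of the 6.

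Among 8 circles of subunits and partners of multi-subunit ligases, 3 were higher and 5 lower. Cdc27 (mmu_circRNA_24245), a subunit of the anaphase-promoting complex, had 6.42, 6.78 and 6.80 in pools 1 to 3 and 10.80, 9.41 and 5.69 in pools 4 to 6. This log2 difference of 1.97 again came with pool 6 below all controls. Btrc (mmu_circRNA_32665), which picks substrates for a cullin ligase, had the largest difference downwards, at -0.80. Among 10 circles of deubiquitinases, ubiquitin shuttles and proteasome parts, 2 were higher and 8 lower. The largest were those of Psmf1 (mmu_circRNA_34773), a proteasome inhibitor, at 1.13, and of Psmd14 (mmu_circRNA_33661), the deubiquitinase of the proteasome lid, at -0.96.

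Pool 4 was the highest of all pools, db and non-db, in 10 of these 13 higher circles and the lowest of all in 15 of the 23 lower ones. Among all listed circles it was so in 192 of 206 and in 178 of 247, and among all probes that passed the filter in 52.0% of those higher and 51.6% of those lower. The lists were chosen on means that hold pool 4, so these shares describe them. The place of pool 4 at the far end, seen in all 5 circles of March6, Trim37 and Ltn1, was therefore common to most of the listed circles. Of the 36, the pools did not overlap in 0 of the higher and 2 of the lower ones, those of Ranbp9 (mmu_circRNA_26237) and Ubqln1 (mmu_circRNA_26400).

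**Figure D5:**
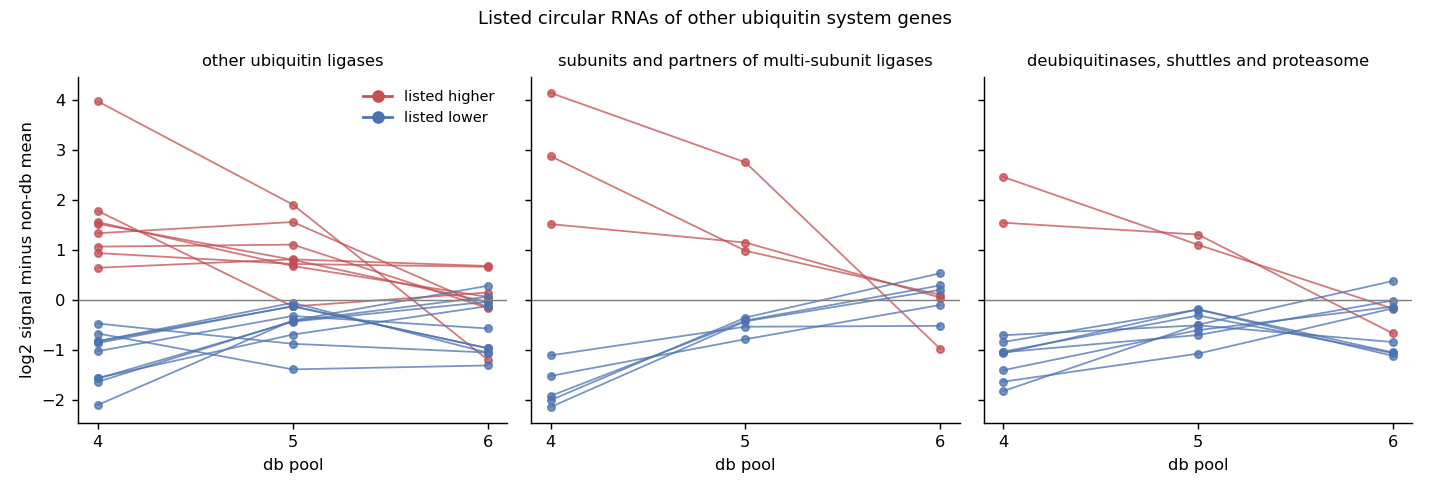
The log2 signal of db pools 4, 5 and 6 minus the non-db mean (vertical axis) for the 36 listed circular RNAs of other ubiquitin system genes in 3 lists, red where listed as higher and blue where listed as lower, with a line joining the values of 1 circular RNA and standing for no order of the pools. In 10 of the 13 red sets pool 4 is the highest, and in 15 of the 23 blue sets it is the lowest.

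The limit of 1.5-fold that chose the members corresponds to a log2 difference of 0.58. The listed circles nearest to it were those of Nsf at 0.59 and of Usp24 (mmu_circRNA_37324) at -0.58, and unnamed probes just outside had 0.58 and -0.58. The higher circle of Ltn1 at 0.66 and the lower circle of Trim37 at -0.65 were near this limit. Other circles of March6, Trim37 and Ltn1 that did not pass it could not be named and were not analysed here.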

How the data were processed

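The circular RNA arrays of 6 neutrophil pools were used. The authors read them with Agilent Feature Extraction 11.0.1.1, per the submitters' processing notes, and deposited 1 table of normalized log2 values for all 6 pools, whose normalization the table does not name (the notes list limma). They also deposited scanner files with the intensity of each spot, its local background and flags, of which that of pool 1 holds 2422 of 15712 spots. Pools 1 to 3 are non-db and pools 4 to 6 db, per the labels.

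The members and gene lists were chosen with earlier results of these data known. The log2 table names probes only by number. A circular RNA was tied to a probe where 1.5-fold lists of the study gave the same fold within 0.001%, in the same direction: 449 of 453 matched 1 probe, and 4 matched 2 and were settled by the p of a paired t-test as listed. No value of those lists was used otherwise. Host genes and chromosomes are as listed, and RefSeq now calls March6 Marchf6.

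A probe was kept if the scanner software marked it as well above background in 3 or more of the 5 complete arrays (12722 kept, 1514 left out). limma 3.58.1 in R 4.3.3 (lmFit, eBayes, Benjamini-Hochberg) compared db with non-db over all of them. The script was first tested on simulated data. The text names the 5 members, the 3 listed circular RNAs nearest to each in profile, and in each of the 3 lists the largest difference each way; Gmcl1, Ranbp9, Ubqln1, Itgam and Usp24 were named after their values were seen. The check of local background was also chosen after the values were seen. Alternatives were scanner intensities (pools 2 to 6) scaled to the 75th percentile of all or of detected probes, quantile normalized, or corrected by normexp with an offset of 50; group medians and arithmetic means; other filters; the scan session as a block; and each pool left out.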

Additional observations from a re-analysis of the deposited data

How the results depend on the processing

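Of 65 values of the 5 circular RNAs under the alternatives, 0 changed sign and 62 moved by less than the SD between pools. Those with the scan session as a block could not move, since each session held equal numbers of both groups. The SD is a loose measure where pools spread widely. For March6 it was 2.78 in db, so 0.91 without pool 4 and 3.68 without pool 6 counted among the 62. The 3 that moved more were those of the lower Trim37 circle (mmu_circRNA_004724, -0.65 in the deposited values): its log2 difference was -2.25 with scanner signals scaled to the 75th percentile, -2.28 with detected probes only and -2.12 after quantile normalization, against -0.47 after normexp. The scanner settings lack pool 1 for every probe, and the part of each step in the shift was not tested. Group medians gave -0.25 for this circle. With quantile-normalized scanner signals, 1 of the 5 had groups that did not overlap, mmu_circRNA_24012, and leaving out 1 pool gave 2 to 5, with 5 when db pool 6 was left out. Over all probes, those with db pools all above the non-db pools numbered 504 in the deposited values, 790 with scaling to the 75th percentile, 1268 after quantile normalization and 1481 after normexp, and 760 to 1626 with 1 pool left out. Those all below numbered 341, and 1098, 1250 (detected probes), 631 and 785 in the same order, and 765 to 1326 with 1 pool left out. Fewer pools make separate groups easier to reach by construction, which holds for the scanner settings too, as they lack pool 1. Probes past limma's adjusted p of 0.05 ranged from 0 to 2 with 1 pool left out, 2 without db pool 6, and were 0 under every other setting run. The labels give no pairs of db and non-db pools. No paired analysis was therefore run, apart from the paired t-test that settled ties between probes. The small number of arrays limits the precision, and the lower Trim37 circle was near its background, with a processed signal of 5.25 in pool 4 and a local background of 14 there.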
